A study of Bos taurus with 9 samples.

Results

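Nucleoporins are the proteins that build the nuclear pore complex, the channel through the nuclear envelope by which proteins and RNA pass between nucleus and cytoplasm. Genes for them were taken from an RNA sequencing table of bovine oocytes at metaphase II, the stage reached when maturation is complete. A gene was included when its bovine symbol began with NUP and a number or was AAAS, RAE1, SEH1L, SEC13, TPR, NDC1, POM121 or AHCTF1. This gave 30 of the 17852 genes in the table, 23 by the NUP pattern and 7 of the 8 fixed symbols. POM121 matched no symbol in the gene table used here. All 30 passed the filter on low counts, so all 30 were tested among 13206 genes.

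The study compared 3 treatments, as its labels name them: control oocytes, oocytes treated with microplastics, and oocytes treated with microplastics and taurine together. Taurine is an amino sulfonic acid found in animal tissues. Each had 3 libraries, called control 1 to 3, microplastics 1 to 3 and taurine 1 to 3 below, and the taurine libraries carry the microplastics treatment too. All oocytes were bovine female germ cells at metaphase II. The labels give no dose, no exposure time, no particle type and no number of oocytes or animals, and no library with taurine alone was analysed here. Nor do they say whether the libraries of a group stem from different animals or cultures, so p-values reflect only how these libraries vary, and that variation could be technical.

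The pore is built from modules. The outer rings are made of Y-shaped complexes, the inner ring lines the membrane and carries the central channel, and transmembrane nucleoporins anchor the assembly. Filaments on the cytoplasmic face and a basket on the nuclear face take part in the release and docking of cargo. Many channel, filament and basket proteins carry phenylalanine-glycine (FG) repeats that bind transport receptors. In an oocyte at metaphase II the envelope has broken down, and nucleoporin transcripts and proteins are part of the maternal store from which pronuclear and embryonic envelopes are assembled. Several of these proteins also have roles at kinetochores and on the spindle while the envelope is open.

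Libraries held between 21.17 M (microplastics 1) and 22.74 M (microplastics 2) estimated reads. Expression between samples is given as CPM, reads scaled to a common library size with trimmed-mean (TMM) factors, and levels between genes as the deposited TPM (transcripts scaled to a fixed library total), which are per length. The 12 oocyte marker genes summed to 38420 to 47030 CPM in the microplastics libraries, 90190 to 119900 CPM in the control libraries and 81460 to 107900 CPM in the taurine libraries, and none was at 0 in any group. BTG4 was the largest part of these sums, with means of 59410 CPM in control, 19790 CPM with microplastics and 52890 CPM with taurine. Of these 12 genes, 7 were called lower and 2 higher with microplastics, and ZP4, BMP15 and FIGLA were not called. Cumulus and granulosa markers, of which 15 of 16 were found, summed to 420 to 519, 512 to 612 and 517 to 569 CPM in the same order, with FSHR at 0 in all control libraries and FSHR and AMH at 0 in all microplastics libraries. STAR held most of these sums (283 CPM in control, 309 CPM with microplastics). Of 12 such markers tested, 5 fell with microplastics, with log2 fold changes of -1.80 for SERPINE2, -1.43 for GJA1, -1.27 for PTGS2 and -0.57 for VCAN, and INHA near 0 in those libraries. The median of the 12 was -0.80. With taurine against microplastics, SERPINE2, PTGS2, VCAN and INHA were higher, and the median of the 12 was 0.75. Erythroid markers summed to 31.0 to 67.2 CPM in the control, 10.6 to 17.7 CPM in the microplastics and 17.3 to 23.9 CPM in the taurine libraries. Both of their tested genes fell with microplastics, HBA at -1.61 and HBA1 at -1.85 on the log2 scale (adjusted p = 0.00163 and 0.0253), and HBA was higher with taurine against microplastics (1.09, adjusted p = 0.0186). Leukocyte markers summed to 5.94 to 7.35, 3.21 to 4.31 and 4.01 to 5.18 CPM in the same order, with 1 of 2 tested genes called lower with microplastics, and endothelial markers to 19.4 to 37.4, 18.4 to 29.8 and 19.5 to 29.5 CPM. Every marker list but the endothelial one thus held genes called with microplastics. Of the 12 cumulus and granulosa genes tested, 7 were not called: STAR, HAS2, TNFAIP6, PTX3, CYP19A1, NR5A2 and INHBA. Nor were CD68 and the tested endothelial genes. All these marker values rest on the TMM factors, which were 1.214 to 1.253 in the microplastics libraries and 0.835 to 0.972 in the others. They lower the microplastics values beside the other groups. The markers were not compared by library size only, and the order of groups in sums as close as the cumulus and granulosa ones may depend on it. The part of the markers in the nucleoporin results below was not tested. In bulk samples of this kind, fewer cells of a type and less RNA per cell cannot be told apart.

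Over all tested genes, control 3 and taurine 3 stood apart from the other libraries of their groups. Across the 13206 genes, the correlation of control 3 was 0.976 with each of taurine 1 and taurine 2, and lower with control 1 (0.962) and control 2 (0.964). Taurine 3 correlated at 0.977 with control 2, against 0.951 with taurine 1 and 0.962 with taurine 2. After each nucleoporin gene was centred on its mean, taurine 3 correlated at 0.79 with control 1 and 0.82 with control 2, but at -0.18 with taurine 1 and 0.21 with taurine 2. Taurine 1 and taurine 2 correlated at only 0.24, so no pair of taurine libraries was close over these genes. For control 3 the value was 0.65 with taurine 1 and 0.30 with taurine 2, beside 0.33 with control 1 and 0.15 with control 2. These values describe 30 genes within shared libraries. Calls that changed when both libraries were left out are given after the comparison of taurine with control.

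Transcript levels of the 30 genes spanned more than 4 orders of magnitude. In control, NUP35 was highest at 1646 ± 119 TPM (SD, n = 3), followed by NUP88 at 719 ± 152 and NUP37 at 574 ± 25.7 TPM. NUP35 is an inner ring protein that binds the membrane, NUP88 is a linker of the cytoplasmic filaments, and NUP37 is a small subunit of the Y complex. NUP88 and NUP37 did not differ beyond the spread of NUP88 between libraries. RAE1 (321 ± 30.8 TPM), an mRNA export factor, and NUP54 (222 ± 14.6 TPM), a channel protein, came next. SEC13 followed at 197 ± 98.4 TPM, a spread that includes the levels of both NUP54 and SEH1L (165 ± 32.3 TPM).

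At the other end, the 8 lowest genes in control were NUP62, AHCTF1, NUP188, NUP50, NUP214, NUP205, NUP210 and NUP210L. NUP62, the main FG protein of the channel, had 4.91 ± 1.26 TPM, although its channel partners NUP54 and NUP58 had 222 ± 14.6 and 18.3 ± 3.33 TPM. Within the inner ring, NUP35 stood at 1646 ± 119 TPM and NUP155 at 83.6 ± 10.6, while NUP188 and NUP205, the large scaffold proteins, had 3.13 ± 0.938 and 2.52 ± 0.217 TPM. NUP210, a transmembrane glycoprotein whose expression varies between tissues, had 0.147 ± 0.0350 TPM, and its paralogue NUP210L, known from testis, 0.0930 ± 0.0290 TPM. NUP210 stayed near 1 CPM and NUP210L below 1 CPM in the mean of every group, so changes in these genes could be resolved only poorly.

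**Figure D1:**
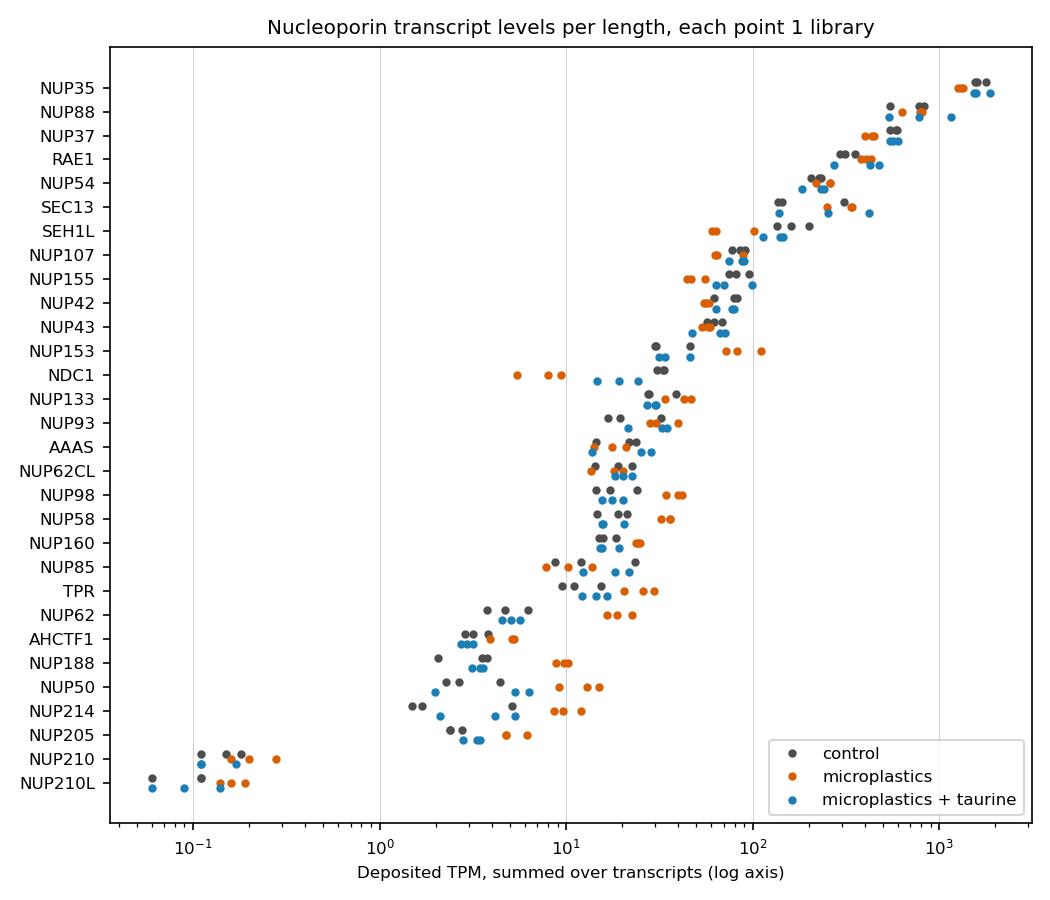
Deposited TPM of the 30 nucleoporin genes on a log axis, genes ordered by control mean, each point 1 library (control grey, microplastics orange, taurine blue). NUP35, NUP88 and NUP37 lie at the top and NUP210 and NUP210L at the bottom. TPM are scaled to a fixed total in each library, so differences between groups on this axis include the change of composition described with the scaling below.

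Summed over the 30 genes, TPM came to 4027 to 4257 in the microplastics libraries, 4356 to 4479 in the control libraries and 4438 to 4849 in the taurine libraries. Their share of estimated reads was 0.646% to 0.672% in the microplastics libraries, 0.712% to 0.757% in the control libraries and 0.719% to 0.794% in the taurine libraries. The microplastics libraries were lowest on both measures, with no overlap with the other groups. NUP35, NUP88, NUP37 and RAE1 make up most of these sums, so they say little of the other genes.

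The first comparison asked what microplastics changed. With microplastics, 10 of the 30 genes fell and 5 rose, against 14.7% of all tested genes that fell and 9.68% that rose (edgeR's quasi-likelihood test, Benjamini-Hochberg adjusted p under 0.05). As shares of the 30 genes these are 33.3% and 16.7%. The genes that fell were NDC1, SEH1L, NUP155, NUP85, NUP37, NUP42, NUP35, NUP107, NUP43 and NUP62CL, and those that rose were NUP50, NUP62, NUP214, NUP188 and NUP153. The median log2 fold change of the 30 genes was -0.14, beside 0.04 for all tested genes. The 30 genes held more reads than most, with a median of 83.4 CPM over their mean levels beside 11.2 CPM for all tested genes, a scale that is not per length. Without control 1, control 2 or microplastics 3 the count of rises was 2, beside 3.67%, 4.21% and 4.3% of all tested genes. Without microplastics 1 it was 3, beside 4.78%. When only genes with at least 5 CPM in 3 libraries were tested, 7 of 28 members rose and 10 fell, beside 16.3% and 19.5% of all 8908 genes.

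The second comparison asked what differed when taurine was given with the microplastics. Against microplastics alone, 10 nucleoporin genes were higher and 3 were lower with taurine, beside 10.1% of all tested genes that were higher and 4.13% that were lower. The median log2 fold change of the 30 genes was 0.35, beside -0.02 for all tested genes. Without microplastics 1 or microplastics 2, 6 genes were higher, beside 5.3% and 5.71% of all tested genes. Without control 3, 5 were lower, beside 5.38%, and without taurine 2, 1 was lower, beside 2.05%. This comparison and the first share the 3 microplastics libraries, so the values of a gene in both are given side by side and are not independent of each other.

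**Figure D2:**
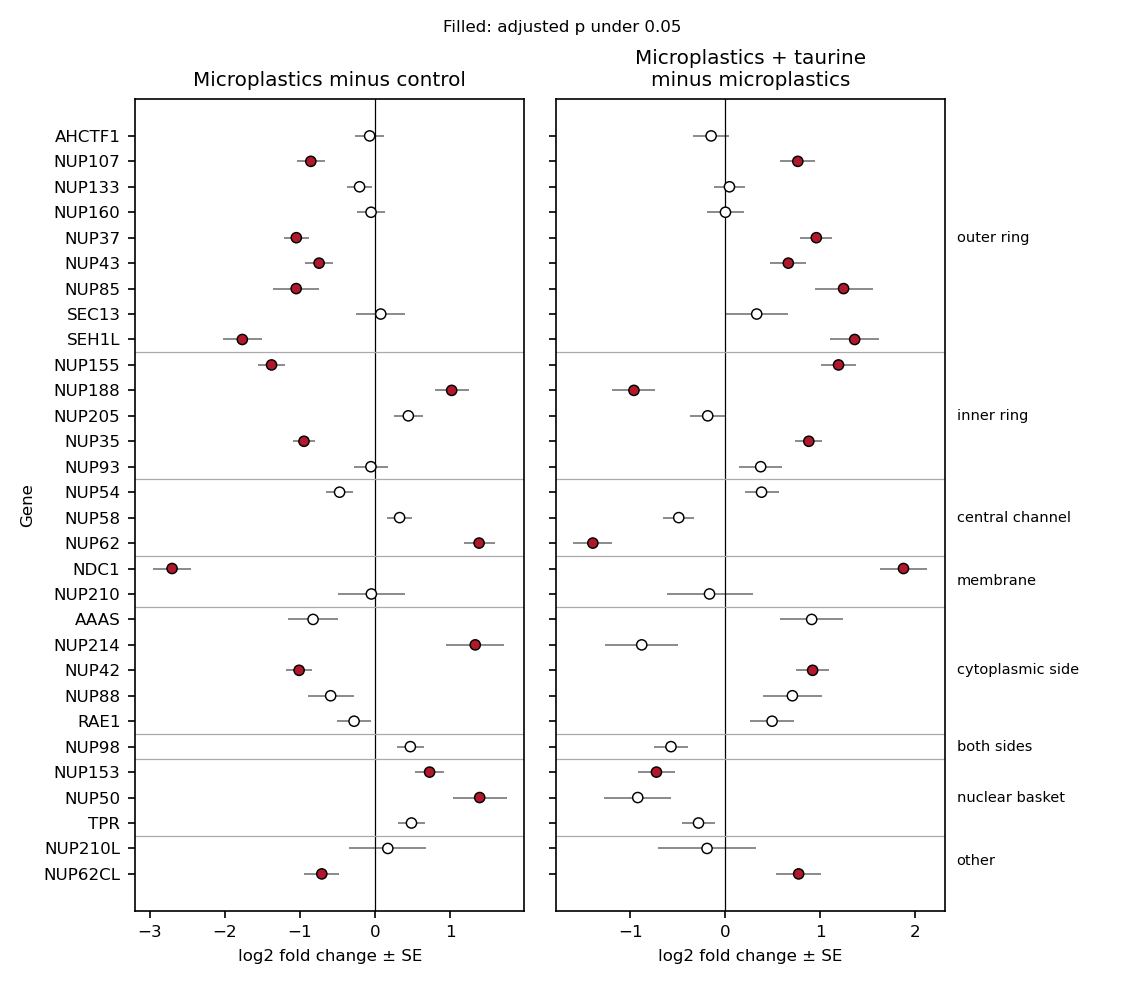
Log2 fold changes ± SE of the 30 nucleoporin genes, grouped by place in the pore, for microplastics minus control (left) and microplastics with taurine minus microplastics (right), with filled points at an adjusted p under 0.05. NDC1 lies farthest to the left at -2.70 and NUP50 and NUP62 farthest to the right at 1.39 and 1.39 in the left panel.

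**Figure D3:**
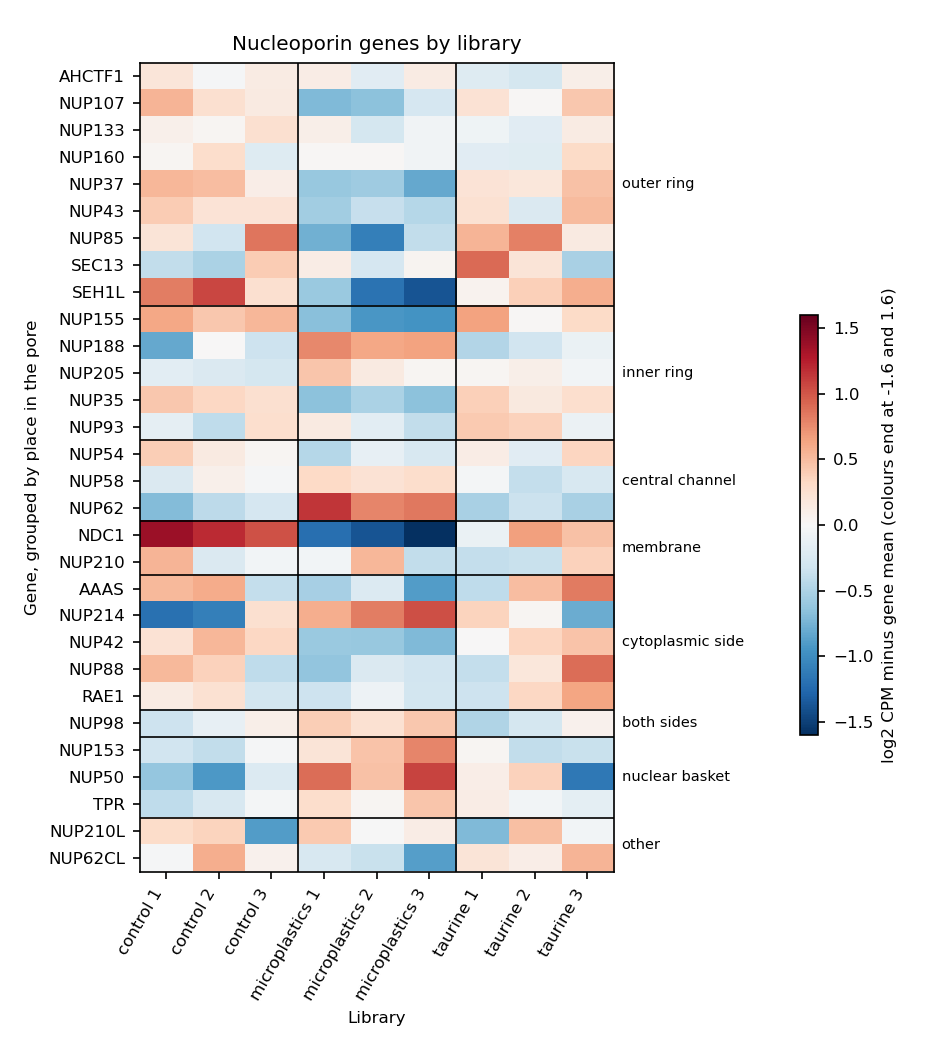
Log2 CPM of the 30 genes in each of the 9 libraries, each gene centred on its own mean, blue below and red above, with colours ending at -1.6 and 1.6. The 3 microplastics columns are blue for most of the outer ring and for NDC1 and red for NUP62, NUP214, NUP50 and NUP188.

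Membrane anchors are described first, since the widest difference was there. NDC1 (gene ID 616114) encodes a transmembrane nucleoporin that anchors the pore and is needed for its assembly. NDC1 had 169, 149 and 133 CPM in control, 28.2, 25.1 and 16 CPM with microplastics and 60.8, 103 and 90.5 CPM with taurine. The 3 microplastics libraries lay below all others, and the 3 taurine libraries lay between the other groups without touching either. Its transcripts fell with microplastics, with a log2 fold change of -2.70 ± 0.26 (adjusted p = 4.62e-05) and with errors of fold changes given as SE throughout, and rose with taurine against microplastics by 1.88 ± 0.25 (adjusted p = 0.000589). NUP210, the other membrane gene found, had mean CPM of 1.02 ± 0.301 in the control, 0.985 ± 0.323 in the microplastics and 0.880 ± 0.280 in the taurine libraries (SD, n = 3), differences within the spread.

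Of the 10 falls 5 were in the outer ring, where the other 4 of 9 genes were not called. This is 55.6% of the ring, beside 14.7% of all tested genes that fell. When libraries were scaled by size alone, NUP37 and SEH1L kept the call, and NUP107, NUP43 and NUP85 lost it. That scaling called 6.63% of all tested genes lower. SEH1L (gene ID 506509) encodes a subunit shared by the Y complex and by a regulator of nutrient signalling at lysosomes. SEH1L had 581, 692 and 392 CPM in control, 219, 145 and 126 CPM with microplastics and 341, 427 and 490.4 CPM with taurine. The microplastics libraries were the lowest 3, and control 3 lay within the range of the taurine libraries. The log2 fold change was -1.77 ± 0.26 (adjusted p = 0.000706) with microplastics and 1.36 ± 0.26 (adjusted p = 0.00445) with taurine against microplastics. NUP37 (gene ID 100139879) had 689, 669 and 513 CPM in control, 313, 322 and 271 CPM with microplastics and 555, 542 and 663 CPM with taurine. Its log2 fold changes were -1.05 ± 0.17 (adjusted p = 0.00127) and 0.96 ± 0.17 (adjusted p = 0.00308) in the same 2 comparisons, and the microplastics libraries did not overlap with either other group.

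NUP107, NUP43 and NUP85, further subunits of the Y complex, were lower by smaller or less even amounts. NUP107, part of the stem of the Y, had 296, 243 and 224 CPM in control, 125, 129 and 168 CPM with microplastics and 237, 206 and 274 CPM with taurine. NUP43, a small subunit of the arms, had 209, 183 and 183 CPM in control, 107, 121 and 115 CPM with microplastics and 186, 133 and 223 CPM with taurine. NUP85, which binds SEH1L, had 25.3, 17.8 and 39.9 CPM in control, 12.9, 10.4 and 16.8 CPM with microplastics and 32.1, 38.7 and 24.4 CPM with taurine. In each of the 3 genes the microplastics libraries were the lowest, by the narrowest margin in NUP85, where control 2 lay just above microplastics 3. The log2 fold changes with microplastics were -0.85 ± 0.19 (adjusted p = 0.00666) for NUP107, -0.74 ± 0.19 (adjusted p = 0.0154) for NUP43 and -1.05 ± 0.31 (adjusted p = 0.0274) for NUP85. The same genes differed between taurine and microplastics by 0.76 ± 0.19 (adjusted p = 0.0170), 0.66 ± 0.19 (adjusted p = 0.0368) and 1.25 ± 0.31 (adjusted p = 0.0185).

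Several of these calls were lost when any of several libraries was left out, in some runs with a similar or larger fold change. Calls over all tested genes moved too. Those higher with taurine against microplastics were 10.1% with all libraries, 5.3% without microplastics 1 and 10.5% without control 3. For NUP107 the taurine call was lost without microplastics 1 (0.67), microplastics 2 (0.69) or taurine 3 (0.66). The NUP43 call with microplastics was lost without control 1 (-0.68), microplastics 1 (-0.68) or microplastics 3 (-0.73), and its taurine call without control 2, any of the microplastics libraries, taurine 1 or taurine 3 (0.49 to 0.69). For NUP85 the call with microplastics was lost without control 1 (-1.11), control 3 (-0.67), microplastics 1 (-1.01) or microplastics 2 (-0.88), and the taurine call without microplastics 1 (1.20), microplastics 2 (1.08) or taurine 2 (1.08). The signs did not change. SEH1L and NUP37 kept both calls under every alternative run.

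The 2 transcripts of NUP107 in the table could be read apart. The one of 2918 nt had means of 173.5 CPM in control, 106.9 CPM with microplastics and 153.9 CPM with taurine, and the one of 2874 nt had 81.0, 33.8 and 84.7 CPM. Tested singly, the longer changed by -0.70 on the log2 scale with microplastics (adjusted p = 0.0443) and by 0.53 with taurine against microplastics (adjusted p = 0.143). For the shorter the values were -1.26 (adjusted p = 0.0109) and 1.32 (adjusted p = 0.0128). Whether the transcripts differ from each other was not tested, and the assignment of reads between such similar transcripts is an estimate.

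The uncalled genes of the outer ring were AHCTF1, NUP133, NUP160 and SEC13. AHCTF1, or ELYS, which brings the Y complex to chromatin when pores are rebuilt after division, had 27.5 ± 1.97 CPM in control, 26.2 ± 3.16 with microplastics and 23.6 ± 3.34 with taurine. NUP133 and NUP160, large subunits of the stem and arm, had log2 fold changes with microplastics of -0.21 ± 0.17 (adjusted p = 0.389) and -0.05 ± 0.19 (adjusted p = 0.864). The means of NUP160 were within 3 CPM of each other, at 82.8 ± 14, 79.9 ± 2.51 and 79.9 ± 16.6 CPM. SEC13, which is also a coat protein of vesicles leaving the endoplasmic reticulum, varied too widely within groups to resolve a change, at 218 ± 80.5, 230.1 ± 31.2 and 289 ± 138 CPM. Its control 3 and taurine 1 were high, at 179, 165 and 311 CPM in control 1 to 3 and 437, 269 and 163 CPM in taurine 1 to 3.

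In the inner ring, 2 of 5 genes fell, 1 rose and 2 were not called. These are 40% and 20%, beside 14.7% and 9.68% of all tested genes. NUP155 (gene ID 506738), a scaffold protein that contacts the membrane and is required for the envelope to re-form, had 411, 363 and 388 CPM in control, 169, 141 and 138 CPM with microplastics and 418, 272 and 332 CPM with taurine. NUP35 (gene ID 511248) had 2481, 2317 and 2212 CPM in control, 1170, 1301 and 1171 CPM with microplastics and 2415, 2062 and 2222 CPM with taurine. Both were lowest in the 3 microplastics libraries with a wide gap to all others. NUP155 had log2 fold changes of -1.38 ± 0.18 (adjusted p = 0.000376) with microplastics and 1.19 ± 0.18 (adjusted p = 0.00129) with taurine against microplastics, and NUP35 of -0.95 ± 0.14 (adjusted p = 0.000838) and 0.88 ± 0.14 (adjusted p = 0.00198). Both genes kept both calls under every alternative run.

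NUP188 rose, where NUP155 and NUP35 of the same ring fell. NUP188 (gene ID 504307) had 12.6, 22.3 and 17.6 CPM in control, 37.7, 34.2 and 34.6 CPM with microplastics and 16, 18 and 20.7 CPM with taurine. The microplastics libraries were the 3 highest, and control and taurine overlapped. Its log2 fold change was 1.02 ± 0.23 (adjusted p = 0.00784) with microplastics and -0.96 ± 0.23 (adjusted p = 0.0151) with taurine against microplastics, the latter lost without microplastics 1 (-0.94) or taurine 2 (-0.95). NUP205, its paralogue in the ring, had 17.2 ± 0.662, 23.4 ± 3.52 and 20.5 ± 1.05 CPM in the 3 groups and did not pass, at 0.44 ± 0.19 (adjusted p = 0.108) and -0.19 ± 0.19 (adjusted p = 0.552). NUP93, the linker that recruits the channel proteins, had 56 ± 13.5, 53.9 ± 10.3 and 69.8 ± 13 CPM, with log2 fold changes of -0.05 and 0.37 that did not pass.

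In the central channel, NUP62 (gene ID 100138517) rose with microplastics. It had 10.7, 13 and 14.4 CPM in control, 38.5, 29.9 and 31.2 CPM with microplastics and 12.1, 13.7 and 12.1 CPM with taurine. The 3 microplastics libraries lay far above every other library, and the control and taurine libraries overlapped. The log2 fold changes were 1.39 ± 0.21 (adjusted p = 0.000773) with microplastics and -1.40 ± 0.21 (adjusted p = 0.00110) with taurine against microplastics, both kept under every alternative run. Its partners did not pass. NUP54 had 455 ± 59.5, 329 ± 36.1 and 428 ± 78 CPM in the 3 groups, with log2 fold changes of -0.47 ± 0.18 (adjusted p = 0.0735) and 0.38 ± 0.18 (adjusted p = 0.180). Without control 3 and taurine 3, NUP54 was called lower with microplastics (-0.53, adjusted p = 0.0259). NUP58 had 67.4 ± 7.37, 84.6 ± 2.62 and 60.2 ± 7.67 CPM, with 0.33 ± 0.17 (adjusted p = 0.164) and -0.49 ± 0.17 (adjusted p = 0.0675). With taurine 1 left out, the latter NUP58 value became -0.59 (adjusted p = 0.0383).

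**Figure D4:**
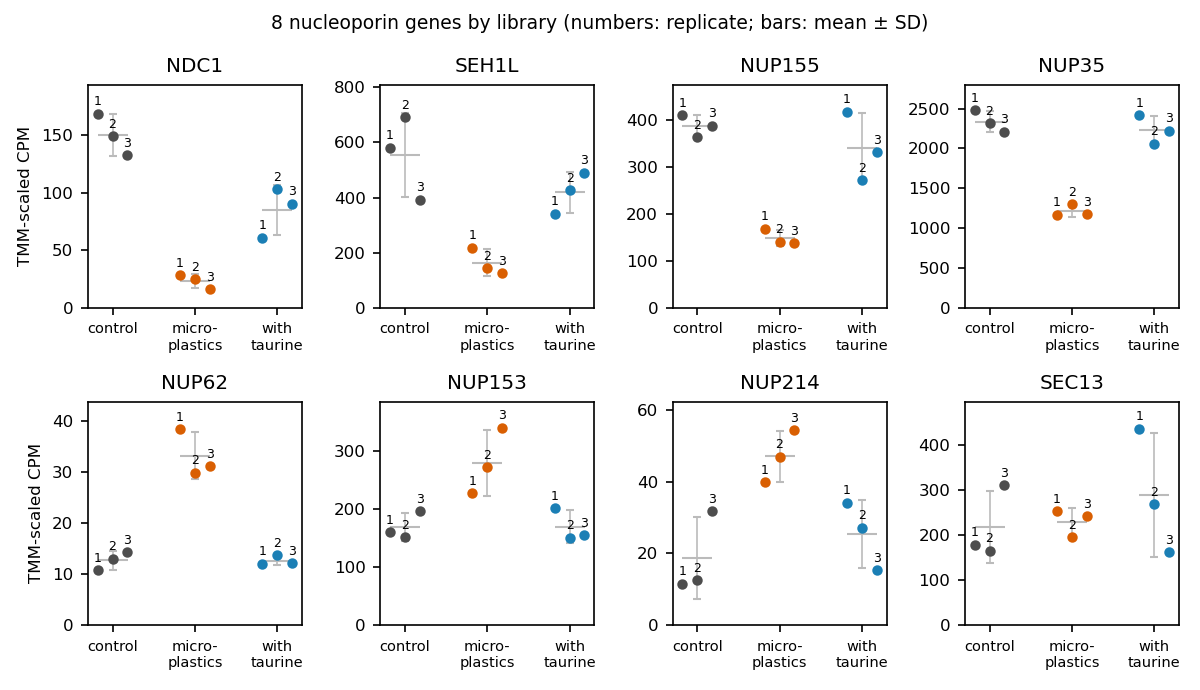
TMM-scaled CPM of 8 nucleoporin genes in each library, numbered by replicate, with the mean ± SD of 3 libraries in grey and axes from 0. In NDC1, SEH1L, NUP155 and NUP35 the microplastics libraries are the lowest 3, in NUP62, NUP153 and NUP214 the highest 3, and in SEC13 the groups overlap.

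On the cytoplasmic side 1 of 5 genes fell and 1 rose, 20% each, beside 14.7% and 9.68% of all tested genes. NUP42, an FG protein of the filaments that takes part in mRNA export, had 80.2, 98.8 and 85.6 CPM in control, 45, 44.6 and 41.8 CPM with microplastics and 68.5, 86.6 and 93.3 CPM with taurine. The microplastics libraries lay within 4 CPM of each other and below all others. The log2 fold changes were -1.01 ± 0.17 (adjusted p = 0.00176) with microplastics and 0.92 ± 0.17 (adjusted p = 0.00449) with taurine against microplastics. NUP214, a large FG protein that binds the exportin XPO1, had 11.6, 12.5 and 31.8 CPM in control, 40.0, 47.1 and 54.4 CPM with microplastics and 34.2, 27.2 and 15.4 CPM with taurine. Control 3 was far above control 1 and control 2, and taurine 3 was below taurine 1 and taurine 2. The log2 fold change with microplastics was 1.34 ± 0.39 (adjusted p = 0.0274), which did not pass when control 1 (1.09), control 2 (1.11), microplastics 1 (1.46), microplastics 2 (1.35) or microplastics 3 (1.23) was left out. Between taurine and microplastics it was -0.88 ± 0.38 (adjusted p = 0.149), which was called without control 3 (-0.90, adjusted p = 0.0387).

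NUP88, which pairs with NUP214, had 2100, 1899 and 1109 CPM in control, 953, 1253 and 1188 CPM with microplastics and 1129, 1666 and 2742 CPM with taurine. It showed the split of control 3 and taurine 3 openly: control 3 was near the microplastics libraries, and taurine 3 was above every other library. NUP88 did not pass, at -0.59 ± 0.31 (adjusted p = 0.177) with microplastics and 0.71 ± 0.31 (adjusted p = 0.150) with taurine against microplastics. Without control 3 and taurine 3 its change with microplastics was -0.81 (adjusted p = 0.00439), and its change with taurine against microplastics was 0.29 (adjusted p = 0.34). The latter was 0.31 (adjusted p = 0.529) without taurine 3 and 0.96 (adjusted p = 0.0396) without taurine 1. With control 3 alone left out, NUP88 was not called with microplastics. Leaving out control 3, picked from these same data, widens that change by selection, which the p-value does not allow for. RAE1 had 479 ± 88.3, 395 ± 36.8 and 555 ± 175 CPM in the 3 groups and AAAS, also called ALADIN and mutated in triple A syndrome, 32.7 ± 10.7, 18.4 ± 4.31 and 34.6 ± 13.6 CPM. Neither passed, with log2 fold changes with microplastics of -0.28 ± 0.23 (adjusted p = 0.397) and -0.82 ± 0.33 (adjusted p = 0.0912). Between taurine and microplastics they were 0.49 ± 0.23 (adjusted p = 0.179) and 0.91 ± 0.33 (adjusted p = 0.0919). AAAS was called lower with microplastics without control 3 (-1.06) or taurine 1 (-0.83), and without taurine 1 both were called higher with taurine against microplastics, RAE1 by 0.72 and AAAS by 1.19. Without taurine 3 the same values were 0.27 (adjusted p = 0.514) and 0.63 (adjusted p = 0.285).

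On the nuclear side, 2 of the 3 basket genes rose with microplastics, beside 9.68% of all tested genes. NUP153, an FG protein that ties the basket to the ring and helps to recruit outer-ring complexes, had 160, 151 and 196 CPM in control, 227, 271 and 339 CPM with microplastics and 202, 150.4 and 155 CPM with taurine. The microplastics libraries were the highest 3, and microplastics 1 lay closest to the other groups. The log2 fold changes were 0.73 ± 0.20 (adjusted p = 0.0193) with microplastics and -0.73 ± 0.20 (adjusted p = 0.0282) with taurine against microplastics. The first call was lost without control 1 (0.69), control 2 (0.65) or microplastics 3 (0.58), and the second without microplastics 2 (-0.76), microplastics 3 (-0.58), taurine 2 (-0.65) or taurine 3 (-0.67).

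NUP50, a mobile FG protein that works with importins, had 5.34, 4.33 and 7.06 CPM in control, 15.3, 11.4 and 17.3 CPM with microplastics and 8.84, 10.6 and 3.72 CPM with taurine. These are low levels, and the microplastics libraries were again the highest 3. NUP50 rose with microplastics by 1.39 ± 0.36 (adjusted p = 0.0160) on the log2 scale, and the call was lost without control 1 (1.36), control 2 (1.24), microplastics 1 (1.38) or microplastics 3 (1.27). Between taurine and microplastics NUP50 did not pass, at -0.92 ± 0.35 (adjusted p = 0.106). TPR, the coiled-coil protein of the basket filaments, had 85.2 ± 11, 119 ± 17.1 and 98.1 ± 9.62 CPM in the 3 groups, with 0.49 ± 0.18 (adjusted p = 0.0609) and -0.28 ± 0.17 (adjusted p = 0.305), and without control 3 its change with microplastics was 0.61 (adjusted p = 0.0343). The span of TPR overlaps that of PRG4 in the RefSeq annotation (ARS-UCD2.0), and PRG4 held 105.3% as many estimated reads as TPR, so the TPR counts are uncertain.

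NUP98, an FG protein found on both faces of the pore, had 105, 120.3 and 141 CPM in control, 173, 157 and 178 CPM with microplastics and 94.8, 109 and 138 CPM with taurine. The microplastics libraries were the highest 3, and it did not pass, at 0.47 ± 0.18 (adjusted p = 0.0786) with microplastics and -0.57 ± 0.18 (adjusted p = 0.0554) with taurine against microplastics. It was called in both without control 3 (0.60 and -0.59), and in the second without taurine 3 (-0.73). None of its 3 transcripts was called singly, with log2 fold changes with microplastics of 0.52, 0.50 and 0.03. Of the genes with other NUP symbols, NUP62CL, whose protein resembles the C-terminal part of NUP62, had 29.4, 44.5 and 31.2 CPM in control, 24.9, 23.3 and 16.2 CPM with microplastics and 34.5, 32 and 43.5 CPM with taurine. Its log2 fold changes were -0.71 ± 0.24 (adjusted p = 0.0461) with microplastics and 0.77 ± 0.24 (adjusted p = 0.0470) with taurine against microplastics. Both stood near the threshold: the first was lost without any one of control 1, control 2, the microplastics libraries or taurine 2 (-0.50 to -0.82), and the second without any one microplastics or taurine library (0.59 to 0.87). NUP210L had 0.630 ± 0.257, 0.707 ± 0.111 and 0.617 ± 0.245 CPM in the 3 groups. Its RefSeq span overlaps TPM3 and RPS27, both with many more reads, so its counts are uncertain.

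Level, protein type and transcript length of the genes that moved are given as a description. On the CPM scale, which is not per length, the 10 genes that fell had control means of 27.7 to 2337 CPM (median 223), and the 5 that rose had 5.58 to 168.8 CPM (median 17.5). Of the 8 members best known for FG repeats (NUP42, NUP50, NUP54, NUP58, NUP62, NUP98, NUP153 and NUP214), a group formed after the values were seen, 4 rose, 1 fell and 3 did not pass. Of the other 22 members 1 rose, 9 fell and 12 did not pass. Over all tested genes 9.68% rose and 14.7% fell. These counts were not tested. The transcripts of the genes that fell were 1048 to 4520 nt long, and those of the genes that rose 1775 to 6927 nt. The ranges of level and of length overlap between the genes that rose and those that fell.

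Transcript length moved with the fold change in all genes as well as in nucleoporin genes. The 30 genes had a median length of 3099 nt, against 2033 nt over the 13175 tested genes with a length. Across the 30 genes, log2 length and log2 fold change correlated at r = 0.31 (Spearman rho 0.43) with microplastics and at r = -0.43 (rho -0.50) with taurine against microplastics, a description over genes that share the same libraries. Over all tested genes in 5 classes of length, the median log2 fold change with microplastics went from -0.35 in the shortest class (median 755 nt) to 0.26 in the longest (median 5066 nt). With a smooth length trend removed in each library, 4 nucleoporin genes rose and 10 fell with microplastics, beside 8.09% and 14% of all genes. The median of the 30 genes was then -0.33. NUP153 was no longer called (0.50, adjusted p = 0.0649). With taurine against microplastics, 9 were higher and 1 lower under that setting, beside 8.56% and 3.16% of all genes. There NUP188 (-0.72, adjusted p = 0.057), NUP153 (-0.51, adjusted p = 0.0867) and NUP62CL (0.74, adjusted p = 0.0687) lost their calls. NDC1, SEH1L, NUP155, NUP37, NUP35 and NUP62 kept theirs in both comparisons.

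**Figure D5:**
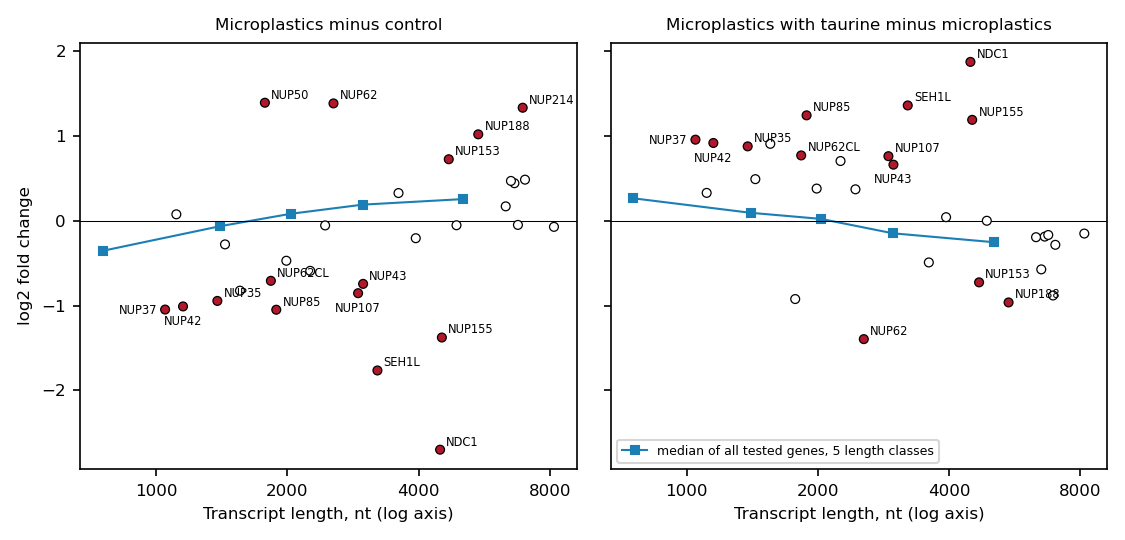
Log2 fold change against transcript length (log axis, nt) for the 30 nucleoporin genes, microplastics minus control on the left and microplastics with taurine minus microplastics on the right, filled and named at an adjusted p under 0.05. Blue squares are medians of all tested genes in 5 length classes, which rise from -0.35 to 0.26 on the left, and NDC1, SEH1L and NUP155 lie far below them there.

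The scaling of libraries decided how the counts split. TMM factors were 1.214 to 1.253 in the microplastics libraries and 0.835 to 0.972 in the others, and without them the median of all tested genes with microplastics moved from 0.04 to 0.52. With scaling by library size only, 9 nucleoporin genes rose and 6 fell with microplastics. Over all genes there were 4004 rises (30.3%) and 876 falls (6.63%), where TMM scaling gave 1278 and 1935. The median of the 30 genes was then 0.34, which is 0.18 below that of all genes, as it was with TMM factors. Rises of NUP188, NUP62, NUP214, NUP153 and NUP50 were called with either scaling, and so were falls of NUP37, SEH1L, NUP155, NUP35, NDC1 and NUP42. The falls of NUP107 (-0.36), NUP43 (-0.26), NUP85 (-0.60) and NUP62CL (-0.22) were not called by library size, and NUP205, NUP58, NUP98 and TPR were called higher.

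With taurine against microplastics, 5 genes were higher and 9 lower by library size, beside 4.55% and 18.8% of all tested genes. Those higher with either scaling were NUP37, SEH1L, NUP155, NUP35 and NDC1, and those lower with either were NUP188, NUP62 and NUP153. NUP107 (0.32), NUP43 (0.22), NUP85 (0.82), NUP42 (0.48) and NUP62CL (0.33) were called only with TMM factors. No called gene changed sign between the scalings. The median of the 30 genes was -0.07 by library size, beside -0.45 for all genes.

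The third comparison set microplastics with taurine against control. None of the 30 genes was called by edgeR, and none by DESeq2's Wald test or limma-voom, beside 0.00757% of all tested genes called higher and 0% called lower by edgeR. At an unadjusted p under 0.05, 1 member differed, beside 5.70% of all tested genes. That gene was NDC1, at a log2 fold change of -0.83 ± 0.24 (adjusted p = 0.855), with all 3 taurine libraries (60.8, 103 and 90.5 CPM) below all 3 control libraries (169, 149 and 133 CPM). NUP205 went the other way without overlap, at 20.6, 21.6 and 19.5 CPM with taurine and 17.9, 17.1 and 16.5 CPM in control. Its log2 fold change was 0.26 ± 0.19 (adjusted p = 0.859). The other members overlapped, and the share of all tested genes without overlap was not computed. The 30 log2 fold changes ran from -0.83 (NDC1) to 0.47 (NUP50), with a median of -0.04 beside 0.02 for all tested genes. NUP62 differed by -0.01 ± 0.21, NUP35 by -0.07 ± 0.14 and NUP153 by 0.00 ± 0.20. A p that misses the threshold does not show that these groups are alike, and the errors of the wider genes, such as NUP214 at 0.45 ± 0.38 and SEC13 at 0.41 ± 0.33, leave room for sizeable differences.

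This comparison depended on control 3 and taurine 3. Without both, 2 nucleoporin genes were called higher with taurine than in control, NUP214 by 1.35 (adjusted p = 0.00814) and SEC13 by 1.04 (adjusted p = 0.0214), beside 4.64% of all 13426 tested genes higher and 1.19% lower. Both libraries were picked from these same data as lying close to the other group, so leaving out both sets control and taurine apart by selection. In NUP214 and SEC13 it removed the highest control and the lowest taurine library. The p-values of this run do not allow for that choice. The median of the 30 genes was then -0.16. Control 3 was also the control library closest to the microplastics libraries, at correlations of 0.957 to 0.96 over all tested genes. Those of control 1 and control 2 were 0.922 to 0.946. Leaving out control 3 thus widens microplastics minus control by selection too, also in the runs without control 3 alone. Their p-values do not allow for it. With control 3 and taurine 3 left out, 7 genes rose and 13 fell with microplastics, beside 19.5% and 18.6% of all genes. The added calls were falls of NUP88 (-0.81), AAAS (-1.06, adjusted p = 0.00776) and NUP54 and rises of NUP98 (0.60, adjusted p = 0.0155) and TPR (0.61, adjusted p = 0.0217). Taurine against microplastics then gave 8 genes higher and 4 lower, beside 9.09% and 4.15% of all genes. NUP98 was added (-0.75, adjusted p = 0.0131), and NUP43 (0.47, adjusted p = 0.113) and NUP62CL (0.62, adjusted p = 0.114) were no longer called. NDC1, SEH1L, NUP155, NUP37, NUP35 and NUP62 remained called in both.

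Genes of the transport machinery that works with the pore changed in part. Of 17 tested import receptors and adaptors, 2 rose and 1 fell with microplastics, with a median log2 fold change of 0.42. These are 11.8% and 5.88% of the list, beside 9.68% and 14.7% of all tested genes and their median of 0.04. With scaling by library size 9 were called higher and none lower, beside 30.3% and 6.63% of all tested genes. With taurine against microplastics that scaling called 8 lower, beside 18.8% of all genes. TMM scaling gave 1 (KPNB1) there, beside 4.13%. Without control 3, 5 rose and 1 fell with microplastics, beside 15% and 15.8% of all genes. KPNB1, importin beta, which carries cargo through the pore, rose from 4.55 ± 2.09 to 12.7 ± 3.79 CPM (means ± SD of 3 libraries), at 1.47 ± 0.36 (adjusted p = 0.0117) on the log2 scale. IPO9 rose from 11.7 ± 2.68 to 21.8 ± 1.88 CPM and KPNA2, an adaptor for nuclear localization signals, fell from 264 ± 7.76 to 168 ± 25.2 CPM, at 0.90 ± 0.25 (adjusted p = 0.0208) and -0.66 ± 0.17 (adjusted p = 0.0181). These calls were lost without 1 library in several cases: KPNB1 without control 1, control 2 or microplastics 3 (1.21 to 1.31), IPO9 without control 1, control 2, microplastics 1 or microplastics 3 (0.78 to 0.95), and KPNA2 without control 1, microplastics 2 or microplastics 3 (-0.54 to -0.64). KPNA7, an adaptor known from oocytes and early embryos, had 2814 ± 464 CPM in control and 2641 ± 459 with microplastics and did not pass.

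Of 7 exportins, 3 rose and 1 fell with microplastics, which is 42.9% and 14.3% beside 9.68% and 14.7% of all tested genes. With scaling by library size 4 rose and none fell, beside 30.3% and 6.63% of all genes. With taurine against microplastics that scaling called 4 lower, beside 18.8%, where TMM scaling gave 2, beside 4.13%. XPO5, which exports precursors of microRNAs, rose from 13.2 ± 2.45 to 34.6 ± 1.49 CPM, at 1.39 ± 0.20 (adjusted p = 0.000711), and XPO6, which exports actin, from 11.1 ± 3.54 to 27 ± 1.56 CPM, at 1.29 ± 0.27 (adjusted p = 0.00553). XPO7 also rose (0.94, adjusted p = 0.0426), a call lost without any one of control 1, control 2, the microplastics libraries or taurine 2 (0.80 to 1.08), and was named after its values were seen. XPO1, the main exporter of proteins and the partner of NUP214, fell from 166 ± 37.1 to 73.5 ± 27.7 CPM, at -1.18 ± 0.27 (adjusted p = 0.00948), a call lost with scaling by library size (-0.68, adjusted p = 0.0529). With taurine against microplastics, XPO5 was lower, at -1.36 ± 0.20 (adjusted p = 0.00119) on the log2 scale, and XPO6 at -1.14 ± 0.27 (adjusted p = 0.0152), the latter lost without microplastics 3 (-1.11) or taurine 3 (-0.95). KPNB1 was lower too, at -1.30 ± 0.35 (adjusted p = 0.0295), a call lost without any one microplastics library, taurine 2 or taurine 3 (-1.04 to -1.44).

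None of 8 genes of the Ran cycle, which gives transport its direction, was called in either comparison by edgeR, DESeq2 or limma-voom. At an unadjusted p under 0.05, 1 was higher with microplastics and 1 was higher with taurine against microplastics. Of all 13206 tested genes, 2368 and 2289 were higher at that level in the same order. With scaling by library size, 4 were called higher with microplastics and 1 lower with taurine against microplastics, beside 30.3% and 18.8% of all genes. Without control 3, 1 was called higher with microplastics, beside 15% of all genes. Without taurine 3, 1 was called higher with taurine against microplastics, beside 6.98%. Of 12 mRNA export genes, 2 rose (MCM3AP and NXT1) and 2 fell (SEM1 and ENY2) with microplastics, at 0.72 ± 0.18 (adjusted p = 0.0153), 0.74 ± 0.20 (adjusted p = 0.0213), -1.29 ± 0.30 (adjusted p = 0.0105) and -0.60 ± 0.18 (adjusted p = 0.0303). This is 16.7% each way, beside 9.68% and 14.7% of all tested genes. By library size 4 rose and none fell with microplastics, beside 30.3% and 6.63% of all genes. That scaling gave 2 lower with taurine against microplastics, beside 18.8%. Without control 3, 2 rose and 3 fell with microplastics, beside 15% and 15.8%. Each call was lost without 1 library: MCM3AP without control 1 (0.69), NXT1 without control 1, microplastics 2 or microplastics 3 (0.64 to 0.76), SEM1 without microplastics 3 (-1.16), and ENY2 without control 1, control 2 or any microplastics library (-0.50 to -0.65). Between taurine and microplastics 2 were higher, ENY2 by 0.62 ± 0.18 (adjusted p = 0.0372) and the helicase DDX19A by 0.76 ± 0.23 (adjusted p = 0.0455), the latter named after its values were seen. Those calls were lost too, ENY2 without control 2, any microplastics library or taurine 1 (0.43 to 0.66) and DDX19A without any one library except control 3 and taurine 3 (0.64 to 0.92). With scaling by library size ENY2 was at 0.20 (adjusted p = 0.444) and DDX19A at 0.34 (adjusted p = 0.366), and with the length trend removed ENY2 was at 0.27 (adjusted p = 0.397).

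Of 14 genes of the lamina and inner nuclear membrane, 2 fell with microplastics, which is 14.3%, near the 14.7% of all tested genes. Without control 3, 4 fell and 1 rose, beside 15.8% and 15% of all genes. By library size 1 fell and 3 rose, beside 6.63% and 30.3%. EMD, emerin of the inner nuclear membrane, fell from 189 ± 28.5 to 95.1 ± 0.864 CPM, at -0.995 ± 0.19 (adjusted p = 0.0032), and was higher with taurine against microplastics by 0.94 ± 0.19 (adjusted p = 0.00633), a call lost with scaling by library size (0.50, adjusted p = 0.06). BANF1, which bridges chromatin and the re-forming envelope, fell from 1489 ± 167 to 1028 ± 117 CPM, at -0.54 ± 0.16 (adjusted p = 0.0317), and lost its call without any one of control 1, control 2 or the microplastics libraries (-0.43 to -0.58). With scaling by library size the falls of KPNA2 (-0.17), SEM1 (-0.78), ENY2 (-0.11) and BANF1 (-0.05) were not called, and with the length trend removed MCM3AP (0.47), SEM1 (-0.59), ENY2 (-0.11), BANF1 (-0.15) and XPO7 (0.73) were not. No gene of these 5 lists was called between taurine and control by edgeR, DESeq2 or limma-voom. Of the 17 tested import genes, 2 differed at an unadjusted p under 0.05, beside 5.7% of all tested genes. With control 3 and taurine 3 left out, 2 were called higher with taurine than in control, IPO4 by 1.57 (adjusted p = 0.0229) and LMNA by 1.24 (adjusted p = 0.0388), both named after their values were seen. All tested genes gave 4.64% higher there. The choice of these libraries sets control and taurine apart, and leaving out control 3 also widens microplastics minus control. The p-values do not allow for either. Those 2 libraries left out, 5 import genes rose and 2 fell with microplastics, 3 exportins rose and 1 fell, 1 Ran cycle gene rose, 2 mRNA export genes rose and 3 fell, and 1 lamina gene rose and 4 fell. With taurine against microplastics 1 import gene and 2 exportins were then lower, and 1 Ran cycle, 2 mRNA export and 1 lamina gene were higher. Over all tested genes that run called 19.5% higher and 18.6% lower with microplastics, and 9.09% higher and 4.15% lower with taurine against microplastics.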

How the data were processed

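RNA of 9 bovine oocyte libraries was sequenced on an Illumina platform after TRIzol extraction, per the labels' protocols. For the aligner, counter, build, annotation and use of strand, the entry is: not given in the sources used here. Per the file headers, the authors deposited 1 table of 22590 transcript rows with expected counts (35.0% of rows not whole in some library), FPKM, TPM and a scaled signal. The authors' deposited FPKM served only to derive transcript lengths, and the authors' scaled signal and group means were not used here. The authors' deposited TPM, summed per gene, gave levels between genes.

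Expected counts were summed over 17852 gene IDs and rounded. Symbols came from a RefSeq gene table (ARS-UCD2.0), which named 95.2% of the genes. Of the 30 nucleoporin genes, 28 have 1 transcript. Tests used edgeR 4.0.16 in R 4.3.3 (quasi-likelihood, robust, TMM, expression filter with minimum count 10 and total 15, 1 coefficient per group over all libraries), with Benjamini-Hochberg adjustment over 13206 genes and calls at an adjusted p under 0.05. The code was tested on simulated data. Alternatives were limma 3.58.1 (voom), DESeq2 1.42.0 and the settings given at the end. Counting error alone leaves 3 reads as the smallest resolvable level.

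The members and lists were chosen with earlier results of these data known. Every member is named. Values by library are given for members called in either of the first comparisons and for the 3 with the highest mean TPM, and up to 2 rising and 2 falling genes of each related list are named. Among RefSeq spans, 13 members overlap another gene and 5 a protein-coding one. Sequences are not printed.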

Additional observations from a re-analysis of the deposited data

How the results depend on the processing

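Over the 30 genes, 3 comparisons and all alternatives, 1704 values were compared with the main one. No called value changed sign, 71 calls were lost and 41 were gained, and 99 values that were never called changed sign, which is counted as no change here. Scaling by library size only turned the medians of the 30 genes to 0.34 (microplastics minus control), -0.068 (taurine minus microplastics) and 0.013 (taurine minus control), with 9 rises and 6 falls in the first comparison and 5 higher and 9 lower in the second. The shares of all tested genes were 30.3%, 6.63%, 4.55% and 18.8% in that order. Genes lower with taurine against microplastics numbered 5 at an adjusted p under 0.1, with the 5 CPM filter and with DESeq2's Wald test, and 1 with the length trend removed, which also moved the first median to -0.33. The shares of all genes were 7.99% with that filter, 6.82% with DESeq2 and 3.16% with the length trend removed. No share of all genes is given at an adjusted p under 0.1. That looser threshold can add calls among all genes too, so its count of 5 cannot be judged against them. Leaving out control 3 and taurine 3 gave 2 genes higher with taurine than in control and a median of -0.16, in a run whose choice of libraries sets these groups apart. The causes of these changes were not tested.

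With each library left out in turn, rises with microplastics ran from 2 to 7 and falls from 7 to 11. Over all tested genes the shares ran from 3.67% to 15% and from 8.68% to 15.9%. With taurine against microplastics 6 to 11 genes were higher and 1 to 5 lower, with a median from 0.18 to 0.35. Over all tested genes those shares ran from 5.3% to 11.5% and from 1.31% to 5.38%. The median of taurine minus control ran from -0.16 to 0.03. With the replicate block, 5 genes rose and 8 fell with microplastics, 8 were higher and 2 lower with taurine against microplastics, and 0 were called between taurine and control. Over all tested genes the block gave 6.53% and 11.8% in the first comparison and 7.57% and 2.22% in the second. Same-numbered libraries deviated from their group means with correlations of -0.44 to 0.26, and differently numbered ones with -0.31 to 0.39. The labels do not say whether libraries were paired by number or shared a batch, and these correlations cannot decide it. Not every library correlated best with its own number. DESeq2 size factors moved no count of nucleoporin genes. Depth limits NUP210 and NUP210L, whose levels near 1 CPM gave SE of 0.45 to 0.53.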
